A study of Mus musculus with 11 samples.

Results

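The wells described here are 55 single testis cells with the highest joint level of Pou3f1, Tcea3, Serpine2, Crabp1, Lmo1 and Mex3d, genes that were proposed as markers of later differentiating spermatogonia. They were chosen from 1228 kept wells, which had at least 3000 unique molecular identifiers (UMIs, tags that each mark 1 captured RNA molecule), out of 1920 wells in all. The score of a well was the mean over the 6 genes of the natural logarithm of 1 plus the UMIs per 10000. In each mouse the top 4.5% of kept wells were taken, which gave 21 of 475 wells in mouse 1, 12 of 273 in mouse 2 and 22 of 480 in mouse 3. The members were thus chosen by measured values, and their high levels of the 6 genes are a description and not a finding.

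All cells came from adult testes of 3 untreated mice that carry a Dazl-GFP reporter, and live GFP-positive cells were sorted singly into plates. Dazl is a germ cell gene, so the sort was for germ cells. The libraries were made by SORT-Seq, which reads the 3′ ends of polyadenylated RNA. Mouse 1 was processed by CEL-Seq1 and its 8 libraries are pooled here, since the table does not separate them, whereas mice 2 and 3 were processed by CEL-Seq2. Mouse 3 gave 1 library sorted by gate and 1 by index sorting. There was no treatment or second genotype, the strain and the age beyond adult are not given in the labels, and the replicate is the mouse (n = 3).

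Spermatogonia are the mitotic germ cells at the base of the seminiferous tubule. Undifferentiated spermatogonia include the stem cells. Under retinoic acid they become differentiating spermatogonia, which express the receptor tyrosine kinase KIT, divide several times and then enter meiosis, a step for which Stra8 is required. The 6 genes of the score have unrelated roles. Pou3f1 encodes a POU-domain transcription factor, Lmo1 a LIM-only cofactor of transcription and Tcea3 a transcription elongation factor of the TFIIS family. Crabp1 encodes a cytoplasmic binding protein of retinoic acid, Serpine2 a secreted inhibitor of serine proteases and Mex3d an RNA-binding protein.

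The 6 genes lie on 5 autosomes, by the GENCODE M21 annotation of GRCm38. Pou3f1 spans chr4:124656807-124660655 and Tcea3 spans chr4:136247729-136274898, both on the plus strand. Crabp1 spans chr9:54764748-54773110 on the plus strand. Serpine2 spans chr1:79794197-79861180, Lmo1 spans chr7:109138572-109175207 and Mex3d spans chr10:80380355-80387659, all on the minus strand. The last 100 bases before the annotated start are printed for 4 genes whose RefSeq start (GRCm38.p6) is also the outer end of the GENCODE gene. These are 2 genes of the score, Crabp1 and Lmo1, and 2 named genes that rose against undifferentiated wells, Dmrtb1 and Cited1. Whether the 4 rise together in members was not tested. Capitals mark the GC box GGGCGG on either strand, and overlapping boxes count separately.
Crabp1, chr9:54764648-54764747, plus strand: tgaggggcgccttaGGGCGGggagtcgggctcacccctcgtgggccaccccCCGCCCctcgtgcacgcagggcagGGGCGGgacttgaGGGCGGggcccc
Lmo1, chr7:109175208-109175307, minus strand: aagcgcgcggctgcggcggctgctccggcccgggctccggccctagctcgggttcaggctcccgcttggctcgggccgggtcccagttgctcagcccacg
Dmrtb1, chr4:107684231-107684330, minus strand: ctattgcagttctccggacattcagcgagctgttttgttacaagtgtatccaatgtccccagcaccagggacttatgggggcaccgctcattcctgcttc
Cited1, chrX:102252182-102252281, minus strand: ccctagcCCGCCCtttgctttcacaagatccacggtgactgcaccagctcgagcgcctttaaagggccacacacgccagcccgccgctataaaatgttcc
The 4 stretches have no common layout. Crabp1 holds 4 GC boxes in the printed bases, Cited1 holds 1, and Lmo1 and Dmrtb1 hold 0. In the 250 bases before the start, a GC box stood in 2 of these 4 windows and in 32.7% of 32851 RefSeq windows. The octamer ATGCAAAT, a sequence that POU proteins bind, stood in 0 of the 4 and in 1.60% of all windows, and AGGTCA, a core sequence bound by nuclear receptors, in 0 of the 4 and in 14.0% of all. These are matches of letters in a short window and no measure of binding.

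The score had no gap at the threshold. The lowest member scored 0.749 in mouse 1, 0.939 in mouse 2 and 0.988 in mouse 3, and the highest well left out scored 0.739, 0.931 and 0.978. A score of 0 was found in 244, 107 and 167 kept wells of mice 1, 2 and 3. The members are therefore the upper end of a continuous range and not a separate cloud of wells. When scores were taken from wells thinned to 3000 UMIs, 28 of the 55 wells then chosen were members. Within 0.1 of the lowest member score lay 7, 6 and 10 members and 13, 4 and 10 wells outside.

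**Figure D1:**
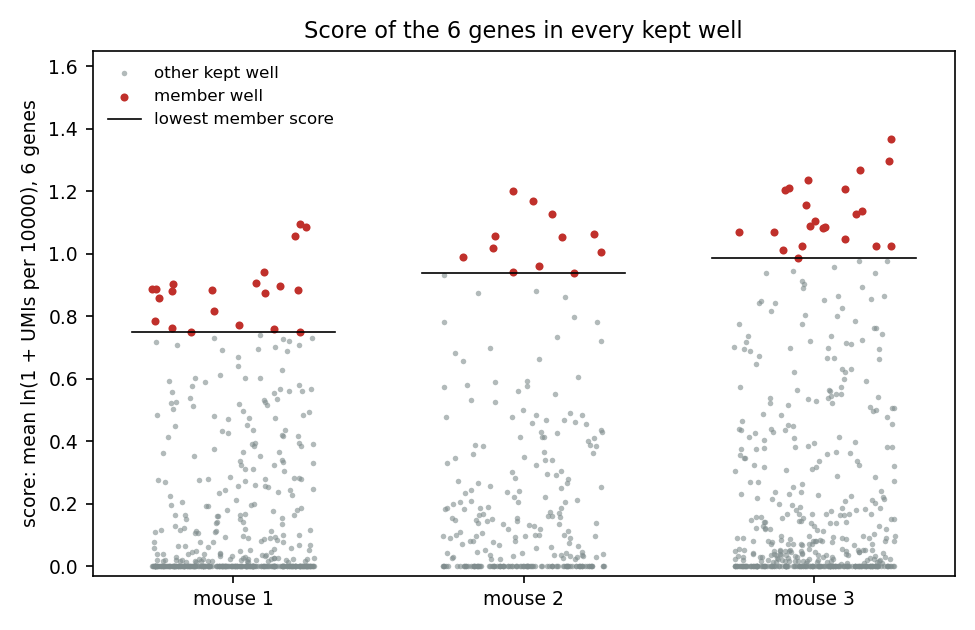
Score of the 6 genes (y axis, mean natural logarithm of 1 plus UMIs per 10000) in each of the 1228 kept wells, by mouse (x axis, with random horizontal jitter). Red points are the 55 member wells, grey points the other wells and the black lines the lowest member score (0.749, 0.939 and 0.988), with grey points directly below each line.

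Before thinning, every member had UMIs of at least 4 of the 6 genes, with 39 of 55 wells showing all 6, 12 showing 5 and 4 showing 4. Crabp1 was the most abundant, at 532, 569 and 634 CPM (UMIs of the gene per 1000000 UMIs) in the summed members of mice 1, 2 and 3 and at 57.2, 64.8 and 73.5 CPM in the summed other wells. Pou3f1 stood at 112, 209 and 224 CPM in members and at 9.61, 15.9 and 15.1 CPM in other wells. Mouse 1, the CEL-Seq1 mouse, was the lowest of the 3 for both genes. The means of the other 4 genes in members were 215 ± 47.0 CPM for Mex3d, 132 ± 25.3 for Serpine2, 123 ± 32.6 for Lmo1 and 90.3 ± 34.0 for Tcea3 (SD, n = 3). When 1 gene was taken out of the score and wells were chosen by the remaining 5, between 45 and 50 of the 55 wells chosen were members, and the gene left out was between 8.14-fold (Mex3d) and 13.5-fold (Tcea3) higher in those wells than in the other wells. Most of these wells were members, and the rule was set with earlier results of these data known. These folds are therefore a description and not a finding.

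At equal depth, the share of members with a UMI followed the order of levels for Crabp1, Pou3f1 and Tcea3 but not for all 6 genes. Mex3d was second in mean level in members, yet it had a UMI in 19 thinned members, below Pou3f1 (25) and Serpine2 (21). After each well was thinned to 3000 UMIs, Crabp1 had a UMI in 46 of 55 members (83.6%, exact 95% interval 71.2 to 92.2), Pou3f1 in 25 (45.5%, 32.0 to 59.4) and Tcea3 in 13 (23.6%, 13.2 to 37.0). Before thinning, 55, 50 and 49 members had a UMI of these genes. In the 55 wells with the highest pachytene spermatocyte marker score, the thinned counts were 2, 0 and 0 wells. Before thinning they were 24, 2 and 3 wells, at a median of 62762 UMIs against 27240 in members, so Crabp1 was not absent there. In the early differentiating range, described below, the thinned counts of the 3 genes were 18, 4 and 0 of 31 wells. Thinned Lmo1 had a UMI in 9 of these 31 wells (29.0%) and in 16 of 55 members (29.1%). The intervals cover counting error only.

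Besides all 1173 other wells, 3 ranges were cut in the same way by other genes. The undifferentiated range was scored by Gfra1, Etv5, Ret, Zbtb16, Nanos3 and Upp1 and held 17, 11 and 19 wells of mice 1, 2 and 3. The early differentiating range was scored by Dlk1 and Dnmt3b and held 10, 8 and 13 wells. The Stra8 range was scored by Stra8 and Prdm9, which marks cells at meiotic entry, and held 21, 12 and 22 wells. Wells in more than 1 top share were left out of the ranges. Of the members, 17 were also in the top share of the early score, 1 in that of the undifferentiated score and 0 in that of the Stra8 score.

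The 6 genes themselves had different profiles over these ranges. Pou3f1 was second highest in the undifferentiated range, at 84.6 ± 29.8 CPM, then at 57.0 ± 29.1 CPM in the early range, and had 0 UMIs in the Stra8 range. Its members in mouse 1 (112 CPM) stood near the undifferentiated range of mouse 2 (109 CPM). Crabp1 was second highest in the early range, at 431 ± 105 CPM, with 551 CPM in mouse 3 above the 532 CPM of the members of mouse 1. Serpine2, Lmo1 and Mex3d also ranked second in the early range, at 77.5 ± 8.03, 71.6 ± 43.6 and 125 ± 22.4 CPM. Tcea3 was low in every comparison range, at 7.39 ± 9.88, 12.7 ± 11.2 and 1.21 ± 2.10 CPM in the undifferentiated, early and Stra8 ranges (SD, n = 3 mice). The groups of Tcea3 did not overlap, and Tcea3 was one of the genes that chose the members.

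**Figure D2:**
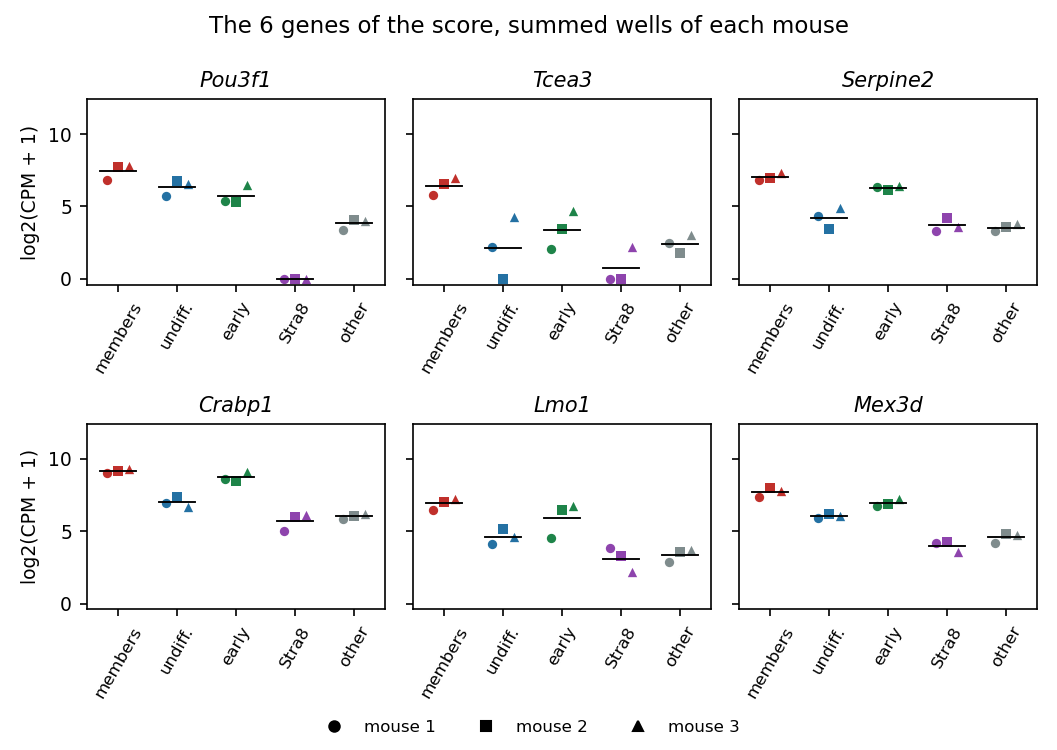
Levels of the 6 genes that define the score (y axis, log2 of CPM + 1) in members, the 3 comparison ranges and all other kept wells (x axis), with 1 point per mouse and a line at the mean of the log values. All 6 genes are highest in members by construction, Crabp1 reaches 551 CPM in the early range, and Pou3f1 has no UMI in the Stra8 range.

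Against the label, the levels of marker genes outside the score were as follows. Kit stood at 324, 448 and 426 CPM in the members of mice 1, 2 and 3, against 39.5, 70.6 and 51.8 CPM in other wells. Dnmt3b, a de novo DNA methyltransferase, stood at 298 ± 50.5 CPM in members and 39.3 ± 4.85 CPM in other wells. Of 13 genes of a list for differentiating spermatogonia with enough UMIs, 7 were at least 2-fold higher in the members of all 3 mice (Dlk1, Dmrt1, Dnmt3b, Kit, Sohlh1, Taf7l and Uchl1) and 0 at least 2-fold lower, with a median log2 ratio of 1.42. Over all 8230 genes with at least 30 UMIs in members and 10 CPM on the higher side, 18.4% were at least 2-fold higher in all 3 mice and 9.47% lower, with a median of 0.31. The contrast is the one that chose the members, so nothing is read from these counts. Gfra1, a receptor subunit of the stem cell compartment, had 1 UMI in all members, and Ret had 10. A list for undifferentiated spermatogonia had 6 genes with enough UMIs. Of these, 4 were at least 2-fold higher in the members of all 3 mice (Foxo1, Lin28a, Sall4 and Sox3) and 0 at least 2-fold lower. The median log2 ratio of the 6 was 1.82. The whole list summed to 661, 823 and 746 CPM in members and to 433, 569 and 534 CPM in other wells. Nothing is read from these values either. The pachytene markers summed to 591, 1041 and 1456 CPM in members and to 5821, 8052 and 10100 CPM in other wells. The markers checked here were those of differentiating and undifferentiated spermatogonia and of pachytene spermatocytes. That the cells are later than other differentiating ones was not measured, since the wells carry no time.

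Summed markers of each somatic or blood cell type reached at most 135 CPM in members. Sertoli markers summed to 55.8, 41.3 and 135 CPM in members and to 61.9, 56.1 and 59.2 CPM in other wells, and in mouse 3 most of this was Clu, with 48 UMIs in 7 of 22 wells and 29 of them in 1 well. Leydig markers summed to 16.9 to 23.6 CPM in members and 106 to 129 CPM in other wells, and 6 listed genes had 0 UMIs in members. Macrophage markers summed to 7.97, 5.90 and 16.9 CPM in members and 6.55, 9.45 and 8.90 CPM in other wells, and peritubular markers to 7.97, 5.90 and 15.5 against 7.19, 6.67 and 7.67 CPM, so both were higher in the members of mice 1 and 3 and lower in those of mouse 2. Endothelial markers summed to 27.9, 20.6 and 19.7 CPM in members and 6.30, 10.8 and 7.32 CPM in other wells, higher in all 3 mice. Erythroid markers summed to at most 2.81 CPM in members and 1.11 CPM in other wells. Egfl7, the one gene of these somatic lists at least 2-fold higher in all 3 mice, reached a mean of 19.9 CPM in members and 4.69 CPM in other wells. The part of these markers in any result was not tested.

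By the shares of X-linked and Y-linked genes, the members stood nearer to the 3 comparison ranges than to the other wells. X-linked genes gave 2.67, 2.38 and 2.17 UMIs per 100 autosomal UMIs in the members of mice 1, 2 and 3 and 1.06, 1.11 and 0.758 in the other wells, so all 3 mice were higher in members and the groups did not overlap. The X share of members was below that of the Stra8 range in each mouse (3.12, 3.14 and 2.97). The log2 ratio of members to the undifferentiated range was -0.09 ± 0.02, that to the early range -0.04 ± 0.06 and that to the Stra8 range -0.36 ± 0.12 (SD, n = 3). Y-linked genes gave 0.166 ± 0.0433 per 100 autosomal UMIs in members and 0.0536 ± 0.0198 in other wells. Median depth was 26061, 25692 and 32172 UMIs per member. In the Stra8 range it was 9375, 6846 and 12478 UMIs, and UMIs per UMI of the ERCC spike-in, a fixed amount of added RNA, were 1.56 ± 0.21 log2 units higher in members (higher in 3 of 3 mice). Against other wells this log2 ratio of UMIs per ERCC UMI was 0.003, 0.271 and -0.247 in mice 1, 2 and 3. Mitochondrial genes gave 9.43 ± 3.94% of UMIs in members and 8.25 ± 3.34% in other wells (SD, n = 3). An exact exchange of labels within 3 mice cannot go below p = 0.25, so these measures were not tested. In mouse 3, 13 of 267 kept wells of the gate-sorted library (4.87%, exact 95% interval 2.62 to 8.18) and 9 of 213 of the index-sorted one (4.23%, 1.95 to 7.87) were members (Fisher's exact test, two-sided, p = 0.828). The test and intervals count wells of 1 animal, which are not replicates. With 1 library per sorting mode they compare these 2 libraries only and cannot speak for the sorting modes.

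**Figure D3:**
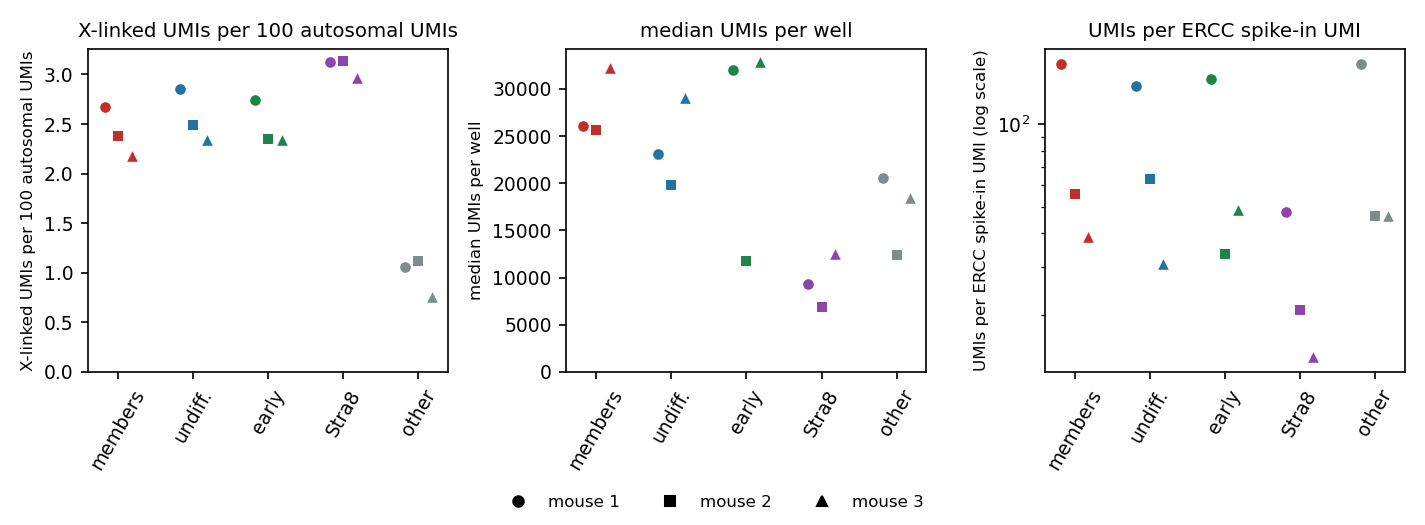
X-linked UMIs per 100 autosomal UMIs, median UMIs per well and UMIs per ERCC UMI (y axes, the last on a log scale) in members, the 3 ranges and other wells, with 1 point per mouse. The X share of members lies between 2.17 and 2.67, above the other wells, and the Stra8 range is lowest in depth in every mouse.

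Relative to all other kept wells, the members were richest in a mixed set of genes that included Kit, Dnmt3b and the surface proteoglycan Sdc1. Among the 12 named genes with the largest ratios were Aifm3 (90.3, 168 and 174 CPM in members against 12.1, 14.5 and 18.2), Panx1, a channel protein (108 against 13.0 CPM in the means), Sdc1 (101 against 12.5), the transcription factor Sox12 (121 against 14.8), Tsc22d4 (204 against 25.8) and Smagp (177 against 21.9). The remaining 6 were Epb4.1l3, Fkbp9, Trnp1, Sertad4, Kit and Dnmt3b. The 8 with the lowest ratios included genes of later germ cells. Rsph1, of the sperm tail's radial spokes, stood at 38.5, 47.2 and 84.3 CPM in members and at 929, 1023 and 1269 CPM in other wells. Clgn, a chaperone of spermatocytes, stood at 22.9 against 374 CPM, Fbp1, an enzyme of gluconeogenesis, at 20.5 against 399 CPM and Cers3, a ceramide synthase, at 34.1 against 552 CPM in the means. Tcp11, Ldhal6b, Asrgl1 and Kctd19 were the others. All 8 were at least 2-fold lower in each mouse, which the naming rule asks for, and mouse 3 had the highest member level for each of them.

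The first tested comparison asks how the members differ from undifferentiated spermatogonia. Members had more Kit, Cited1 and Dmrtb1, more transcripts of DNA replication genes and of cyclin D1, and fewer of Ccnd2, of the inhibitor Cdkn1b and of undifferentiated genes such as Sall4 and Id4. With edgeR's quasi-likelihood test on summed counts with the mouse as a block, 14.3% of 8047 genes were higher in members and 14.6% lower at an adjusted p under 0.05, with a median log2 fold change of 0.04 over all genes tested. The genes of all scores were left out. Both sides were picked from the same counts, so a gene that moves from well to well with a score gene had to differ to some extent, and how much was not tested. Without mouse 3 the counts fell from 1154 higher and 1174 lower to 567 and 741, without mouse 1 to 728 and 1012, without the gate-sorted library to 652 and 735, and without the replicate block to 297 and 471.

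Among genes with a mean of at least 100 CPM on the higher side, to which the named genes were limited, Kit rose most. Its level was 324, 448 and 426 CPM in members against 7.1, 28.9 and 6.77 CPM in the undifferentiated range, a log2 fold change of 5.02 ± 0.27 (SE, adjusted p = 7.95e-16). Cited1, an X-linked transcriptional coregulator, stood at 309, 392 and 408 CPM against 14.2, 25.7 and 33.9 CPM (3.91 ± 0.25, adjusted p = 7.09e-14). The groups did not overlap for either gene, both being named for their large fold changes. Dmrtb1, a DM-domain transcription factor of differentiating spermatogonia also known as DMRT6, stood at 155, 254 and 246 CPM against 5.32, 25.7 and 20.3 CPM (3.76 ± 0.29, adjusted p = 7.07e-12). Other named genes were Cd63, a tetraspanin (2.76), Ccnd1 (2.30), Glt25d1 (2.18) and Sdc1 (2.12), all higher in 3 of 3 mice as the naming rule asks. These edgeR calls of Kit, Cited1, Dmrtb1 and Ccnd1 held without each mouse.

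The 8 genes that fell most within the same limit of 100 CPM were nearly silent in members. Sdc4, a heparan sulphate proteoglycan, stood at 15.9, 8.85 and 14.1 CPM in members against 415, 581 and 464 CPM in the undifferentiated range (log2 fold change -5.05 ± 0.27, adjusted p = 7.95e-16). Foxf1, a forkhead transcription factor, had 3 UMIs in all members, at 1.33, 0 and 2.81 CPM, and 231 in the undifferentiated range, at 165, 116 and 173 CPM (edgeR, adjusted p = 1.12e-12). Fgd5 (-5.73), Enc1 (-5.43), Ptpn13 (-5.26), Oasl2 (-5.23), Gyltl1b (-5.21) and Sox13 (-5.08) had between 4 and 8 UMIs each in members. All 8 were lower in 3 of 3 mice, which the naming rule asks for. No member value reached a value of the undifferentiated range, which the choice of the 8 lowest called genes makes likely.

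By list, all 6 tested genes of undifferentiated spermatogonia fell (0 higher, 6 lower, median log2 fold change -1.59). Sall4, a zinc finger protein, fell from 410, 466 and 518 CPM to 141, 133 and 143 CPM (-1.74 ± 0.18, adjusted p = 5.34e-09). Id4, an inhibitor of DNA binding that marks stem cells, fell by 2.70 and Lin28a, which blocks let-7 maturation, by 1.45 on the log2 scale. Foxo1 and Sox3 fell by 0.86 and 0.75, and the call of Sox3 was lost without mouse 3. The sixth gene was Ccnd2. None of the 6 was higher at an unadjusted p under 0.05 (edgeR, 0 of 6), and DESeq2 also gave 0 higher and 6 lower. Of 10 tested genes of differentiating spermatogonia, 4 rose (Kit, Dmrtb1, Rhox13 and Dmrt1) and 2 fell (Ccnd2 and Sohlh1), with a median of 0.43. Over all 8047 genes 14.3% rose and 14.6% fell. Sohlh1, a transcription factor of early differentiation, stood at 77.0, 121 and 77.3 CPM in members against 169, 186 and 181 CPM (-1.01 ± 0.24, adjusted p = 1.30e-03). Dmrt1 was higher by 0.40 ± 0.14 (adjusted p = 0.0337), a call lost without mouse 1 and without mouse 3.

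Replication genes rose together. Of 20 tested S phase genes, 16 rose and 0 fell, with a median of 0.80, and 0 were lower at an unadjusted p under 0.05 (edgeR) or by DESeq2. Pcna, the sliding clamp, stood at 548, 489 and 621 CPM against 259, 296 and 323 CPM (0.93 ± 0.15, adjusted p = 1.38e-05). Cdc6, which loads the replicative helicase, stood at 98.3, 88.4 and 105 CPM against 28.4, 48.2 and 20.3 CPM (1.72 ± 0.28, adjusted p = 1.20e-05). The S phase count was 7 without mouse 1, 13 without mouse 3, 9 without the gate-sorted library and 5 without the replicate block. Of 20 G2 and M phase genes, 10 rose and 0 fell, with a median of 0.61 and 0 lower at an unadjusted p under 0.05. This count rested on mouse 3: it was 1 without that mouse, 5 without the gate-sorted library, 1 by DESeq2 and 0 with members chosen from thinned wells. Ccnb1, the mitotic cyclin B1, stood at 274, 439 and 464 CPM in members against 177, 437 and 144 CPM, with mouse 2 nearly equal on both sides (edgeR, adjusted p = 0.019, and 0.522 without mouse 3).

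Of 13 tested genes that gate entry into the cell cycle, 2 rose and 5 fell. Over all 8047 genes 14.3% rose and 14.6% fell, so the count of 2 risers was near the overall share. Ccnd1, cyclin D1, rose from 35.5, 116 and 52.5 CPM to 185, 454 and 322 CPM (2.30 ± 0.24, adjusted p = 8.59e-09). Ccnd2, cyclin D2, fell from 300, 546 and 332 CPM to 38.5, 20.6 and 4.22 CPM (-4.14 ± 0.36, adjusted p = 1.07e-10). Members were thus high in one D cyclin and low in the other in each mouse. Cdkn1b, which encodes the inhibitor p27, had 1 UMI in all members, in mouse 1, and 95 in the undifferentiated range, at 72.7, 77.1 and 50.8 CPM (edgeR, adjusted p = 1.02e-07), and Cdkn1c, which encodes p57, fell by 2.63 on the log2 scale. Cdk4 and Rb1 fell by 1.22 and 0.99. The median over the 13 tested genes of this list was 0.02. The calls of Rb1 without mouse 1 (adjusted p = 0.0645) and of Cdkn2a without any one of the mice were lost. Cdkn2a, the second riser, stood 0.67 log2 units higher (SE 0.24, adjusted p = 0.0337).

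Genes of KIT and PI3 kinase signalling moved in both directions. Of 15 tested, 3 rose (Kit, Akt1 and Rps6kb1) and 7 fell, with a median of -0.23. Over all 8047 genes 14.3% rose and 14.6% fell, so little is read from the count of 3 risers. Pik3ca, a catalytic subunit of PI3 kinase, stood at 26.6, 26.5 and 42.2 CPM in members against 103, 112 and 183 CPM (-2.03 ± 0.27, adjusted p = 4.88e-07), and Pik3cd fell by 3.52 on the log2 scale. The call of Akt1 (0.81) was lost without mouse 3, and that of Rps6kb1 (0.70) without mouse 1 and without mouse 3. Of the 7 tested retinoid genes, which had a median of 0.16, Rarg, a retinoic acid receptor, fell (-0.87 ± 0.31, edgeR adjusted p = 0.0322). Its call was lost without mouse 1, without mouse 3 and with DESeq2. Of 10 tested relatives of the score genes 2 fell, Pou3f2 (-2.80) and Pou2f2 (-2.61), and 0 rose, with 0 higher at an unadjusted p under 0.05 (edgeR) and 0 by DESeq2.

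Immediate-early genes, which also respond to tissue dissociation, were lower in members than in the undifferentiated range. Of 6 tested, 4 fell (Egr1, Dusp1, Fos and Zfp36) and 0 rose, with a median of -2.11 and 0 higher at an unadjusted p under 0.05 or by DESeq2. Egr1 stood at 10.6, 11.8 and 12.7 CPM in members and at 122, 263 and 271 CPM in the undifferentiated range (-4.10 ± 0.30, adjusted p = 1.80e-12). The whole list of 13 dissociation genes summed to 386.4, 486.5 and 399.2 CPM in members and to 574.7, 912.3 and 815.7 CPM in the undifferentiated range. The sums were 425.7, 561.2 and 470.3 CPM in the early range and 275.7, 221.2 and 258.3 CPM in the Stra8 range. In other wells they were 104.6, 184.9 and 133.5 CPM, so members were above other wells in each mouse. The part of these genes in the other differences was not tested. Sertoli markers also differed, at 55.8, 41.3 and 135 CPM in members and 247, 215 and 110 CPM in the undifferentiated range. Spermatid markers summed to 387 CPM in the undifferentiated wells of mouse 1 and to 17.3 CPM in its members. Both tested spermatid genes, Prm1 and Prm2, were called lower in members, but Prm1 was lower in 1 of 3 mice, both calls were lost without mouse 1, and both signs turned with ranges chosen from thinned wells.

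**Figure D4:**
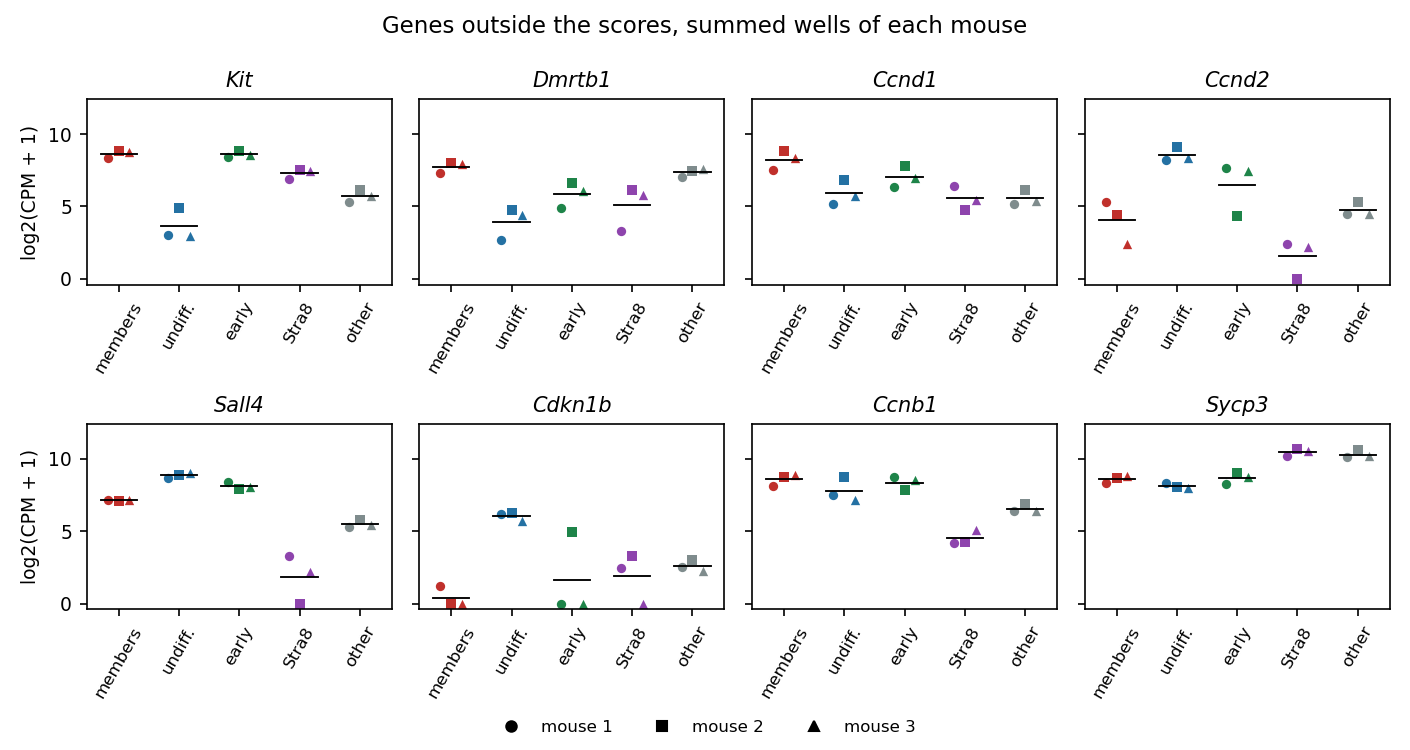
Levels (y axis, log2 of CPM + 1) of 8 genes used in no score, in members, the 3 ranges and other wells (x axis), with 1 point per mouse and a line at the mean of the log values. Kit is high in members and in the early range (399 and 393 CPM in the means), Ccnd1 and Dmrtb1 are higher in members than in the 3 ranges in each mouse, Ccnd2 and Cdkn1b are highest in the undifferentiated range, and Sycp3 is highest in the Stra8 range.

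The comparison with the early differentiating range asks what separates the members from other Kit-positive wells. Few genes did. Of the 8047 genes tested, 0.348% were higher in members and 1.24% lower, with a median of 0.01. These are 28 and 100 genes, and 430 and 642 genes had an unadjusted p under 0.05 in the 2 directions. The calls depended on the fit: 4 higher and 38 lower remained by DESeq2, 7 and 26 without mouse 3, 16 and 54 without mouse 1 and 4 and 30 without the gate-sorted library. There were 0 calls without the replicate block (200 and 360 at an unadjusted p under 0.05) and 0 on read counts (328 and 488). With both ranges chosen from thinned wells there were 0 higher and 3 lower (206 and 408 at an unadjusted p under 0.05). The early range was shallow in mouse 2, at a median of 11744 UMIs per well against 25692 in members, and 17 members had been taken out of it.

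Kit stood at 344, 453 and 382 CPM in the early range against 324, 448 and 426 CPM in members, and was not called (edgeR, adjusted p = 0.999, SE of the log2 fold change 0.17). Dmrtb1 was higher in members, at 155, 254 and 246 CPM against 28.4, 98.5 and 67.5 CPM (1.90 ± 0.26, adjusted p = 4.80e-05), with no overlap and the call kept without each mouse. Dmrtb1 was not particular to spermatogonia, since the other wells stood at 134, 176 and 197 CPM, and it had a UMI in 38 of 55 wells of highest pachytene marker score after thinning against 29 of 55 members. Ccnd1 was higher by 1.21 ± 0.24 (adjusted p = 4.42e-03), at 185, 454 and 322 CPM against 78.8, 226 and 123 CPM. Its groups overlapped, and the call was lost without mouse 3 (adjusted p = 0.192). Stra8 and Dlk1, used to choose ranges and so not tested, stood at 321 ± 58.0 and 97.2 ± 17.0 CPM in members and at 796 ± 275 and 238 ± 14.3 CPM in the early range.

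Among the other genes called higher, Cd63 (1.19), Epcam, an adhesion molecule (1.27), C1d (1.23) and the linker histone H1fx (1.06) each lost their call without mouse 3. Epcam and C1d also lost it without mouse 1. Gpr157 was called at 2.05 but is a mouse 1 value, at 918, 14.7 and 8.43 CPM in members and 189, 0 and 5.78 CPM in the early range. Among those called lower were Cmip (-2.18), Morc1, which silences transposons in male germ cells (-2.07), the cytoskeletal linker Dst (-1.89), Gtsf1 of the piRNA pathway (-1.59) and the RNA-binding protein Ptbp3 (-1.56), then Usp9x, H2afy and Samhd1 between -1.44 and -1.39. Morc1 stood at 31.9, 38.3 and 15.5 CPM in members and at 110, 108 and 110 CPM in the early range (± 0.34, adjusted p = 4.29e-04), with no overlap. The calls of Cmip, Morc1, Ptbp3 and H2afy held without each mouse, that of Gtsf1 was lost without mouse 1, those of Dst and Usp9x without mouse 3 and that of Samhd1 without either.

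Few genes of the lists passed. Beside Dmrtb1 and Ccnd1, Sall4 was lower in members (-1.06 ± 0.20, adjusted p = 2.28e-03, 0.0538 without mouse 1). Ccnd2 was called lower (-2.95 ± 0.42, adjusted p = 5.35e-05), at 38.5, 20.6 and 4.22 CPM against 205, 19.7 and 174 CPM, so that mouse 2 was nearly equal on both sides, and its sign turned with ranges chosen from thinned wells (0.41). None of the 20 S phase genes, 20 G2 and M phase genes, 16 meiotic entry genes or 7 retinoid genes was called (edgeR and DESeq2, 0 each). At an unadjusted p under 0.05 there were 4 higher S phase genes, 3 higher G2 and M phase genes, 0 meiotic entry genes and 1 lower retinoid gene. Their medians were 0.14, 0.13, -0.09 and -0.06. A missed threshold does not show that these genes were equal.

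The comparison with the Stra8 range asks how the members differ from wells high in genes of meiotic entry. Genes of the meiotic chromosome axis and of recombination were lower in members, and mitotic genes higher. Of the 8047 genes, 24.3% were higher in members and 23.2% lower, with a median of 0.04. With one mouse left out at a time there were 1417 to 1956 higher and 1302 to 1730 lower genes. The Stra8 range had fewer UMIs per well than the members in each mouse, as given above, and the part of that in the calls was not tested.

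Of 16 tested meiotic entry genes, 15 fell and 0 rose, with a median of -2.18. All 16 were lower at an unadjusted p under 0.05, 0 were higher, and DESeq2 called 15 lower and 0 higher. Over the 14 alternative settings, 14 to 16 were called lower and 0 higher. Sycp3, of the synaptonemal complex, stood at 325, 401 and 461 CPM in members and at 1164, 1619 and 1528 CPM in the Stra8 range (-1.92 ± 0.16, adjusted p = 7.20e-12). Dmc1, the meiotic recombinase, stood at 58.4, 61.9 and 71.7 CPM against 416, 602 and 535 CPM (-3.04 ± 0.20, adjusted p = 6.02e-14). Sycp2 (-3.24), Mei1 (-2.75), Hormad1 (-2.64), the cohesin subunits Stag3 (-2.44) and Smc1b (-2.07), and Sycp1 (-1.90) fell in all 3 mice without overlap. The levels in members were not 0: against the undifferentiated range Sycp3, Syce2, Smc1b and Mei1 had been called higher (0.48 to 0.81) and Sycp2 (-0.82) and Rad51ap2 lower. The 4 higher calls were each lost without mouse 3, those of Syce2, Smc1b and Mei1 also without mouse 1 and that of Sycp3 also without mouse 2. Rad51ap2, with 3 UMIs in members and 15 in the undifferentiated range (edgeR, adjusted p = 0.039), lost its call without mouse 1 and without mouse 2.

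**Figure D5:**
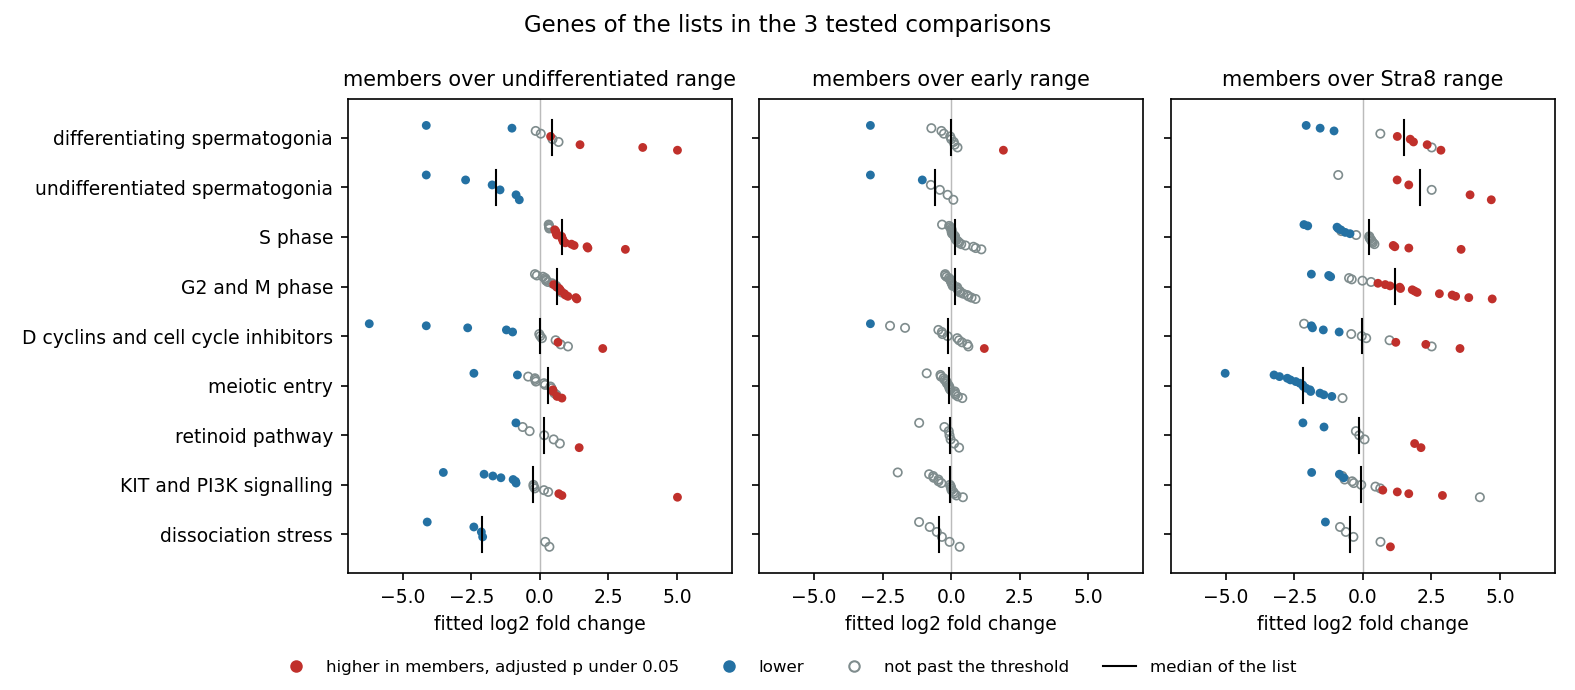
Fitted log2 fold change (x axis) of each tested gene of 9 lists (y axis) for members over the undifferentiated, early and Stra8 ranges. Filled points passed an adjusted p under 0.05 (red higher, blue lower in members), open points did not, and black bars are medians. The meiotic entry list has its median at -2.18 against the Stra8 range and at 0.29 and -0.09 against the other 2.

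Of 20 G2 and M phase genes, 13 rose against the Stra8 range and 3 fell, with a median of 1.17, and the count of higher genes was 11 to 13 with each mouse left out. Ccnb1 stood at 274, 439 and 464 CPM in members against 17.5, 17.7 and 32.7 CPM (3.86 ± 0.42, adjusted p = 3.29e-09), and Aurkb, the kinase of the chromosomal passenger complex, had 176 UMIs in members and 2 in the Stra8 range (edgeR, adjusted p = 8.49e-07). Bub1, Kif23 and Top2a were the 3 that fell. Of 20 S phase genes, 4 rose (Cdt1, Mcm2, Uhrf1 and Mcm7) and 7 fell, with a median of 0.24. Over all 8047 genes 24.3% rose and 23.2% fell, so nothing is read from the count of 4 risers. Cdt1, a replication licensing factor, stood at 167, 168 and 214 CPM against 13.1, 17.7 and 14.6 CPM (3.58 ± 0.35), whereas Rrm2, a subunit of ribonucleotide reductase, was lower in members, at 66.4, 64.9 and 68.9 CPM against 236, 265 and 349 CPM (-2.15 ± 0.28). Per well, S phase genes gave a median of 42.4 UMIs per 10000 in members (13.5 to 71.0) and 42.2 (17.0 to 73.2) in the Stra8 range, against 23.9 (12.8 to 57.4) in the undifferentiated range. For G2 and M phase genes the medians were 43.9 (9.23 to 83.6), 41.6 (16.3 to 81.5) and 24.4 (11.1 to 99.7).

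Of 10 tested differentiation genes, 5 rose against the Stra8 range (Uchl1, Dmrtb1, Dmrt1, Sohlh1 and Kit) and 3 fell (Rhox13, Elavl2 and Taf7l). Their median was 1.49. Over all 8047 genes 24.3% rose and 23.2% fell, so the count of 3 that fell was near the overall share. Uchl1, a ubiquitin hydrolase of spermatogonia, stood at 858, 1660 and 1624 CPM in members against 140, 186 and 200 CPM (2.85 ± 0.17, adjusted p = 7.78e-15). Kit was higher by 1.26 ± 0.21 (adjusted p = 6.25e-06), at 118, 186 and 171 CPM in the Stra8 range. Rhox13, an X-linked homeobox gene, stood at 75.7, 124 and 115 CPM against 306, 566 and 408 CPM (-2.06 ± 0.21, adjusted p = 5.88e-10), so Rhox13 in members stood above the undifferentiated range and below the Stra8 range, with no overlap. Of the 6 undifferentiated genes, 4 rose (Sall4, Lin28a, Foxo1 and Sox3) and 0 fell, with 0 lower at an unadjusted p under 0.05 (edgeR) and 0 by DESeq2. Without mouse 3 the counts were 5 higher and 1 lower.

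Other groups gave smaller counts, where 24.3% of all 8047 genes rose and 23.2% fell. Of 8 DNA methylation genes 3 rose (Dnmt3a, Mbd2 and Uhrf1) and 0 fell, 1 being lower at an unadjusted p under 0.05 (edgeR) and 0 by DESeq2. Dnmt3a, a de novo methyltransferase, stood at 216, 265 and 346 CPM against 114, 88.5 and 54.6 CPM (1.63 ± 0.26, adjusted p = 3.94e-06). Of the retinoid genes, the receptor Rxra rose (2.12), and the enzymes of retinoic acid synthesis Rdh10 (-2.18) and Aldh1a2 (-1.41) fell. Aldh1a2 stood at 46.5, 100.2 and 74.5 CPM against 140, 177 and 211 CPM (± 0.26, adjusted p = 2.82e-05). The call of Rdh10 was lost without mouse 3. Of 10 relatives of the score genes, Mex3a, an RNA-binding relative of Mex3d (2.94), Lmo4 (1.23), Ldb1, the partner of LIM-only proteins (1.09), and Pou2f1 (0.57) rose and Tcea1 (-0.91) fell. The call of Pou2f1 was lost without mouse 2 and without mouse 3, that of Lmo4 without mouse 1 and without mouse 2, and that of Ldb1 without mouse 3. Of 7 BCL2 family genes 4 rose, Bad, Bik, Bax and Bcl2l11, against 2 by DESeq2, with 2 lower at an unadjusted p under 0.05 but 0 called lower by edgeR or DESeq2. The call of Bik was lost without any one of the mice and that of Bcl2l11 without mouse 1 and without mouse 3.

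The named genes of this comparison were near 0 on one side. Pramef12, of the Prame family whose members resemble one another, had 209 UMIs in members and 0 in the Stra8 range, and Phf15, a PHD finger gene, had 205 and 0. With the floor of 3 counts over the whole Stra8 range they were at least 23.8-fold and at least 23.4-fold higher in members. Trnp1 had 179 UMIs in members and 1 in the Stra8 range, Trim71, an RNA-binding ubiquitin ligase, had 168 and 2, and Sall4, Fkbp9 and the transcription factor Nfic had 253, 243 and 213 in members and 3 each in the range. Igsf3 had 248 and 4. Prss50, a testis serine protease, was lower, at 6.64, 47.2 and 25.3 CPM in members against 560, 1274 and 1073 CPM (-5.43 ± 0.25, adjusted p = 4.87e-18). Mgat5b had 3 UMIs in members and 64 in the range. The homeobox gene Pbx3 (-5.50), the laminin Lamb2 (-4.71), Syt7 (-4.62), Aff4 (-4.50), Alcam (-4.47) and the topoisomerase Top2b (-4.40) followed. All 16 had the same direction in 3 of 3 mice, which the naming rule asks for. None overlapped, which the choice of the most extreme called genes makes likely, so neither is read as a result. Clu was called lower in members (-1.67, adjusted p = 0.0355), in 2 of 3 mice, and the call was lost without mouse 1 and without mouse 2. Both tested spermatid genes, Prm1 and Prm2, were also called lower (-2.63 and -3.20), with both signs turned when ranges were chosen from thinned wells.

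Ribosomal protein genes differed between the same ranges. They gave 7.39 ± 1.37% of UMIs in members, 8.81 ± 1.06% in the undifferentiated range, 7.29 ± 1.43% in the early range and 6.08 ± 0.78% in the Stra8 range (SD, n = 3). Of 82 tested, 2 rose and 29 fell against the undifferentiated range, with a median of -0.26. Of all 8047 genes, 14.3% rose and 14.6% fell there. Against the Stra8 range 30 rose and 13 fell, with a median of 0.26, where 24.3% of all genes rose and 23.2% fell. Against the early range 0 rose and 1 fell (edgeR).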

How the data were processed

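Single live GFP-positive cells from adult testes of 3 mice were sorted into plates and sequenced by SORT-Seq, per the labels. The authors deposited UMI counts and read counts per gene and well. BWA 0.7.10 and the mm10 build stand in the submitters' processing notes. The counting tool and annotation are not given in the sources used here. ERCC spike-ins, mitochondrial genes, eGFP and Rn45s were left out of well totals. Rn45s gave 0.407%, 4.58% and 0.594% of UMIs in mice 1, 2 and 3. All wells of a library summed to between 5678911 and 16682671 UMIs, the latter being the pooled libraries of mouse 1. No doublet caller was run, since wells were sorted to hold 1 cell, and 1 member had over 3 times the median UMIs of its mouse's members.

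Counts were summed per mouse and range, which gave 12 sums. They were tested with edgeR 4.0.16 (quasi-likelihood, TMM, filterByExpr, mouse as block, Benjamini-Hochberg) in R 4.3.3. The 12 sums come from the same 3 animals, and deviations of sums of 1 mouse correlated at 0.378 to 0.873. Genes of all scores were left out of the tests, and 1 listed score gene, Gm4969, was not found. DESeq2 1.42.0, read counts and other filters, depths, shares and subsets of mice or libraries were the alternatives. Scripts were tested on simulated data. Python 3.11.15 with pandas 2.3.3, numpy 2.4.6, scipy 1.17.1 and matplotlib 3.10.9 did the rest.

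Named genes were the 12 highest and 8 lowest by median log2 ratio against other wells, and the 8 highest and 8 lowest called genes of each tested comparison with the same direction in 3 mice, each with at least 100 CPM on the higher side, besides genes of the score and of the lists. Some genes that met this rule are not reported here. Comparisons with other wells considered genes with at least 30 UMIs in members and 10 CPM on the higher side. Members and lists were chosen with earlier results of these data known.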

Additional observations from a re-analysis of the deposited data

How the results depend on the processing

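The members and ranges rest on few wells, and the sums of 3 mice limit the tests. Against the undifferentiated range, genes higher and lower numbered 259 and 386 on read counts, 297 and 471 with no replicate block, 424 and 705 with scores from thinned wells, 652 and 735 without the gate-sorted library, and 585 higher by DESeq2. Leaving out 1 mouse gave 567 to 1092 higher and 741 to 1182 lower. The higher share of all calls was 49.57%, and 39.13% by DESeq2, 38.67% with no replicate block and 37.56% with thinned scores. Against the early range, genes higher and lower numbered 4 and 38 by DESeq2, 50 and 156 with no filter, 0 and 0 on read counts, 0 and 0 with no replicate block, 43 and 168 with a minimum of 5000 UMIs, 0 and 3 with thinned scores, 4 and 30 without the gate-sorted library, and 17 and 16 higher with the top 3% and 6%. Leaving out 1 mouse gave 7 to 25 higher and 26 to 90 lower. Against the Stra8 range 1123 were lower on read counts, where the higher share of calls was 62.2% against 51.16% and the median of all genes 0.28. Genes 2-fold lower than in other wells numbered 1205 on read counts and 516 both with the top 3% and without the gate-sorted library. The log2 UMIs per ERCC UMI over other wells was -0.29 with thinned scores, and the log2 mitochondrial share 0.11 with a minimum of 1000 UMIs and 0.26 with thinned scores. Signs turned with thinned scores for Kif11 (-0.22), Prm1 (2.25) and Prm2 (3.83) against the undifferentiated range, Ccnd2 (0.41) against the early range, and Fos (0.057), Prm1 (1.23) and Prm2 (2.60) against the Stra8 range. Against the undifferentiated range Prm1 lay between -3.17 and 1.09 with 1 mouse left out, and Rbmy at -0.60 by DESeq2 against the Stra8 range. The causes were not tested. Of 89, 18 and 114 called list or named genes in the 3 comparisons, 33, 0 and 75 were called under every alternative.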

Other observations

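Mouse 1 held a set of genes at levels not seen in the other mice. Of 3431 genes at 100 CPM or more in the members of at least 1 mouse, 162 were at least 20-fold higher in the members of mouse 1 than in those of both other mice, and 1 gene showed the reverse. Rab33b, a small GTPase, stood at 3421, 32.4 and 28.1 CPM in the members of mice 1, 2 and 3, and Cflar, a regulator of caspase 8, at 2791, 5.90 and 15.5 CPM. The 162 genes gave 10.8% of the UMIs of mouse 1's members and 5.83% of those of its other wells. Among genes called against the undifferentiated range they made up 33 of 1154 higher and 5 of 1174 lower. Mouse 1 is also the CEL-Seq1 mouse, so animal and protocol cannot be told apart.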
